A study of Mus musculus with 14 samples.

Results

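Primary granule gene expression was examined in sorted mouse bone marrow cells from tumour-bearing and tumour-free hosts. The genes were Mpo, Elane, Prtn3, Ctsg and Ms4a3, chosen by name as proteins of the azurophil granule or of the cells that make it, and all 5 are measured, each by 1 of the 22626 probe sets tested. The whole annotation names 12393 genes. The marrow cells were a sorted fraction that carried the surface antigen Sca1 and lacked the receptor cKit. They came from mice bearing an instigating tumour of BPLER cells, a transformed human mammary epithelial line (Instigator, n = 5), from mice bearing a size-matched non-instigating tumour of PC3 cells, a human prostate carcinoma line (Non-instigator, n = 5), and from mice with Matrigel, a basement membrane extract, and no tumour cells (Matrigel, n = 4). Instigating tumours make indolent tumour cells elsewhere in the same animal grow. The sources used here give no strain, age or sex of the mice, no number of animals per array and no treatment shared by all groups, so the p-values below reflect differences among arrays that could be technical. For Instigator 5 the labels disagree, since the title and source give the BPLER tumour and the description gives PC3, and it was kept as Instigator. All values are log2 of robust multi-array average (RMA) intensity, on which a difference of 1 is a doubling.

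Primary granules, also called azurophil granules, are the first granules that a developing neutrophil makes. Their genes are transcribed in granulocyte-monocyte progenitors and promyelocytes and are then shut off, before the genes of the secondary and tertiary granules come on. The proteins persist in the mature neutrophil, but the mRNA marks the early, dividing stages in marrow. Mpo encodes myeloperoxidase, which makes hypochlorous acid. Elane, Prtn3 and Ctsg encode the serine proteases neutrophil elastase, proteinase 3 and cathepsin G. Ms4a3 encodes a membrane-spanning protein of the MS4A family that in mice marks granulocyte-monocyte progenitors.

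The transcription factors PU.1, MYB, C/EBP and RUNX are known to act on promoters of this kind, and the 250 bases before each start site were therefore searched on both strands for short core sequences of these factors (RefSeq, GRCm38.p6, with all 5 genes found in the promoter table). Prtn3 and Elane, which are neighbours on chromosome 10, both held the PU.1 core GAGGAA and the MYB core AACGG, in the same order and on the strand of the gene. In the windows below the matches are in capitals, and Prtn3 and Elane are shown because they share both cores, Mpo and Ctsg because they share the PU.1 core.
Prtn3, chr10:79879417-79879666, plus strand: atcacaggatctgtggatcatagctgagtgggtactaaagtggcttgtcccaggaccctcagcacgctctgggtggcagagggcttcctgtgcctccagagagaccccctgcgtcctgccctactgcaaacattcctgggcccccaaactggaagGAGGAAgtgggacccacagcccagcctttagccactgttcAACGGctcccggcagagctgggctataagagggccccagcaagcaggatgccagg
Elane, chr10:79886062-79886311, plus strand: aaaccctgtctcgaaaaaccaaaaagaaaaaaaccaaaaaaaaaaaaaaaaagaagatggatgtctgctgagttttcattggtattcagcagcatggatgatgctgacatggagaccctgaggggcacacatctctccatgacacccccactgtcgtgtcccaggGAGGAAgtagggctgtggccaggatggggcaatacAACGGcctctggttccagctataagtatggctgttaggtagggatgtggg
Mpo, chr11:87793534-87793783, plus strand: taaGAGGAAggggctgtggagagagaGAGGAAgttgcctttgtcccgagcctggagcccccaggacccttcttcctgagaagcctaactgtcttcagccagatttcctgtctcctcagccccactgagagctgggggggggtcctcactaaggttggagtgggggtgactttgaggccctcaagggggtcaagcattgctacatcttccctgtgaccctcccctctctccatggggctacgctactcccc
Ctsg, chr14:56102575-56102824, minus strand: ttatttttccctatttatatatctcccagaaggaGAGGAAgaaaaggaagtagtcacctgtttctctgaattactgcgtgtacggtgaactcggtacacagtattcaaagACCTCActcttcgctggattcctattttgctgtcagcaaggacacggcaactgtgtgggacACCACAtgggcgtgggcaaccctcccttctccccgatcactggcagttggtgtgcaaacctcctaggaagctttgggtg
Counting back from the start site, GAGGAA lay at -95 to -90 and AACGG at -55 to -51 in Prtn3. The same cores lay at -85 to -80 and at -50 to -46 in Elane. Mpo held GAGGAA at 2 places and Ctsg at 1, so that 4 of the 5 windows held it, against 23.3% of 32851 promoter windows of the same length. AACGG was in 2 of the 5 windows, against 14.5% of all windows, and both cores together were in 3.33% of all windows. The C/EBP core TTNNGNAA was found in 1 window, that of Ms4a3, against 36.8% of all. The RUNX pattern TGNGGT was found at 2 places in Ctsg, against 40.1% of all windows. It was a loose pattern, with any base at N, so a match need not be a RUNX core. The 2 places read TGAGGT and TGTGGT on the opposite strand. None of the matches overlapped another. These are letter matches, and binding was not measured. The core sequences were chosen with these promoters in view, so the comparison with all windows is no test of enrichment. Prtn3 and Elane are neighbours, so the cores they share need not be independent matches.

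Mpo lay at 13.13, 13.14, 13.36, 13.23 and 13.20 on Instigator arrays 1 to 5, at 13.30, 12.95, 13.07, 13.07 and 12.66 on Non-instigator arrays 1 to 5, and at 13.24, 12.93, 13.26 and 13.04 on Matrigel arrays 1 to 4. The group means were 13.21 ± 0.09 (SD, n = 5) for Instigator, 13.01 ± 0.23 (SD, n = 5) for Non-instigator and 13.12 ± 0.16 (SD, n = 4) for Matrigel. The groups overlapped, with Non-instigator 5 the lowest of the 14 arrays and Instigator 3 the highest. The highest value of any probe set on an array was 13.69 to 13.84, so Mpo lay close to the top of the measured range. Its SD over the 14 arrays was 0.18, against 0.33 to 0.45 for the other 4 genes and 0.19 for the median probe set. Whether the scale is compressed at that level was not tested.

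Elane lay at 11.92, 11.68, 12.15, 10.93 and 11.90 on Instigator arrays 1 to 5, at 12.25, 11.68, 11.66, 11.64 and 10.70 on Non-instigator arrays 1 to 5, and at 11.74, 11.21, 11.58 and 11.94 on Matrigel arrays 1 to 4. The group means were 11.72 ± 0.47 (SD, n = 5) for Instigator, 11.59 ± 0.56 (SD, n = 5) for Non-instigator and 11.62 ± 0.31 (SD, n = 4) for Matrigel. Non-instigator 5 and Instigator 4 were the lowest of the 14 arrays, followed by Matrigel 2, and the 3 groups overlapped, with the Matrigel arrays inside the ranges of both tumour groups. Instigator 4 was also the array on which 5′ control probe sets lay far below 3′ ones, by -3.41 for beta-actin, where the remaining 13 arrays lay at -0.81 to -0.51, and by -4.03 for Gapdh, where they lay at -1.16 to -0.73. The part of this in the low Elane value was not tested.

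Prtn3 lay at 12.18, 11.78, 12.25, 11.99 and 11.95 on Instigator arrays 1 to 5, at 12.39, 11.92, 11.57, 11.55 and 10.81 on Non-instigator arrays 1 to 5, and at 12.06, 11.36, 11.96 and 12.05 on Matrigel arrays 1 to 4. Its mean was 12.03 ± 0.19 (SD, n = 5) for Instigator, 11.65 ± 0.58 (SD, n = 5) for Non-instigator and 11.86 ± 0.33 (SD, n = 4) for Matrigel. The Non-instigator group held both the highest and the lowest array of the 14, so the other groups lay inside its range. Ctsg lay at 12.70, 12.57, 12.81, 12.96 and 12.55 on Instigator arrays 1 to 5, at 12.93, 12.62, 12.39, 12.32 and 11.71 on Non-instigator arrays 1 to 5, and at 12.66, 12.17, 12.74 and 12.71 on Matrigel arrays 1 to 4. Its mean was 12.72 ± 0.17 (SD, n = 5) for Instigator, 12.39 ± 0.45 (SD, n = 5) for Non-instigator and 12.57 ± 0.27 (SD, n = 4) for Matrigel. Instigator 4 was the highest of the 14 arrays for Ctsg, where it was the second lowest for Elane.

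Ms4a3 lay at 11.33, 10.90, 11.50, 11.74 and 11.14 on Instigator arrays 1 to 5, at 11.56, 11.06, 10.73, 10.72 and 10.06 on Non-instigator arrays 1 to 5, and at 11.05, 10.47, 10.99 and 11.37 on Matrigel arrays 1 to 4. The group means were 11.32 ± 0.32 (SD, n = 5) for Instigator, 10.83 ± 0.55 (SD, n = 5) for Non-instigator and 10.97 ± 0.37 (SD, n = 4) for Matrigel. Its highest array was 3.21 times its lowest, the widest span of the 5 genes, against 1.62 times for Mpo. For all 5 genes the mean was highest in Instigator, then in Matrigel, then in Non-instigator arrays, and the ranges of any 2 groups overlapped. The Non-instigator SD was the largest of the 3 groups for each gene.

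**Figure D1:**
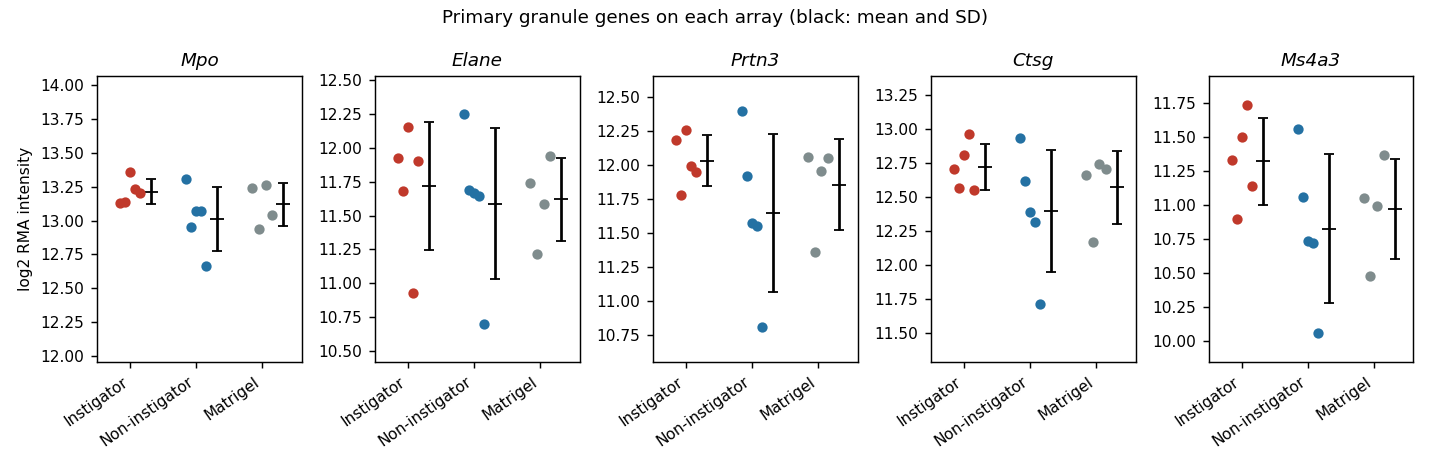
Log2 RMA intensity of Mpo, Elane, Prtn3, Ctsg and Ms4a3 on each array, with 1 coloured point per array in replicate order and the mean and SD of the group in black; each panel spans the same range on the log2 scale. The groups overlap for every gene, and Non-instigator 5 is the lowest point in each panel.

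The comparison of Instigator with Matrigel arrays sets sorted marrow cells of hosts with an instigating tumour, here of BPLER cells only, beside those of tumour-free hosts. All 5 genes had a mean above that of Matrigel, with a median difference of 0.15, where 42.8% of all 22626 probe sets lay above 0 and the median over all was -0.03. Ms4a3 differed the most, by 0.35 (SE 0.26, 95% confidence interval -0.20 to 0.90, 1.28-fold), with a limma adjusted p of 0.622. Prtn3 differed by 0.18 (SE 0.24), Ctsg by 0.15 (SE 0.20), Elane by 0.10 (SE 0.28) and Mpo by 0.09 (SE 0.12), with limma adjusted p of 0.767 to 0.907. None of the 5 passed, as for 0% of all probe sets in this comparison, and none had an unadjusted p under 0.05, where 10.3% of all probe sets did. Two-sided exact permutation tests gave p of 0.206 for Ms4a3 and 0.333 to 0.730 for the others, where 5 against 4 arrays can give 0.0159 at the least. The groups overlapped for each of the 5, as for all but 2.69% of probe sets. The median difference came close to 0 without Matrigel 2, at 0.02, and Elane then lay below Matrigel, by -0.04. The median was larger with array weights, at 0.31, with the replicate number as a block, at 0.25, and with median centring, at 0.22. Elane differed by 0.29 without Instigator 4 and by -0.01 without Instigator 3. Without Instigator 4 and Matrigel 3 together, Elane differed the most of the 5, by 0.28, and Ms4a3 by 0.25.

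The comparison of Non-instigator with Matrigel arrays concerns a size-matched tumour that does not instigate, here of PC3 cells only, and it uses the same Matrigel arrays. None of the 5 genes lay above Matrigel, with a median difference of -0.14, where 36.2% of all probe sets lay above 0 and the median over all was -0.04. Prtn3 differed by -0.21 (SE 0.24, 95% confidence interval -0.73 to 0.31), Ctsg by -0.17 (SE 0.20), Ms4a3 by -0.14 (SE 0.26), Mpo by -0.11 (SE 0.12) and Elane by -0.03 (SE 0.28). The limma adjusted p was 0.986 to 0.995, and 0 of 5 passed, beside 0% of all probe sets. None had an unadjusted p under 0.05, where 2.11% of all probe sets did. Two-sided exact permutation p ran from 0.524 to 0.952. The groups overlapped for each of the 5, and they did not for 0.897% of all probe sets. The direction did not hold without Non-instigator 5, where Prtn3 differed by 0.003, Ms4a3 by 0.05, Elane by 0.19, Ctsg by -0.004 and Mpo by -0.02. Elane also lay above Matrigel without Matrigel 1, by 0.0091, without Matrigel 4, by 0.08, and under 4 other settings, by 0.02 to 0.06. The median was nearer to 0 with the replicate number as a block, at -0.06, and further from it without Matrigel 2 or without Non-instigator 1, at -0.31 each.

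Instigator against Non-instigator arrays compares tumours that differ in instigating activity at matched size. Each group had a single cell line, BPLER or PC3, so instigating activity cannot be told apart from the line or its tissue of origin. All 5 genes averaged higher in Instigator arrays, and the median of the 5 differences was 0.32, where 55.8% of all probe sets lay above 0 and the median over all was 0.02. Ms4a3 differed by 0.50 (SE 0.24, 95% confidence interval -0.02 to 1.01, 1.41-fold), Prtn3 by 0.38 (SE 0.23), Ctsg by 0.32 (SE 0.19) and Mpo by 0.20 (SE 0.11), each with a limma adjusted p of 0.813. Elane differed by 0.13 (SE 0.26), with a limma adjusted p of 0.935. Thus 0 of 5 passed, beside 0% of all probe sets, and none had an unadjusted p under 0.05, where 5.6% of all probe sets did. The exact permutation p (two-sided) was 0.111 for Ms4a3, 0.119 for Mpo and 0.175 to 0.675 for the others, where 5 against 5 arrays can give 0.00794. The groups overlapped for each gene, where 1.2% of all probe sets had no overlap. Only Mpo, Ctsg and Ms4a3 had an Instigator array, 1 each, above every Non-instigator array. That array was Instigator 3 for Mpo. For Ctsg and Ms4a3 it was Instigator 4, the array with the extreme control values. Without Non-instigator 5 the differences were 0.30 for Ms4a3, 0.17 for Prtn3, 0.15 for Ctsg, 0.11 for Mpo and -0.09 for Elane. Without Non-instigator 1, the array of that group with the highest values, they were 0.68, 0.57, 0.46 and 0.27 for Ms4a3, Prtn3, Ctsg and Mpo. Elane differed by 0.32 without Instigator 4. Without Instigator 4 and Matrigel 3 together, Ms4a3 differed by 0.39, Prtn3 by 0.39, Ctsg by 0.26 and Mpo by 0.20.

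**Figure D2:**
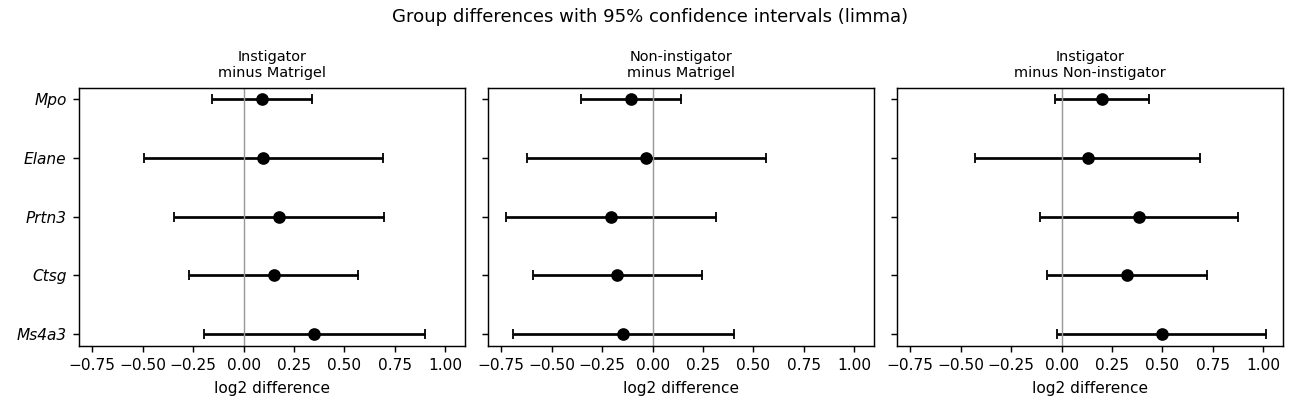
Difference in log2 RMA intensity for each primary granule gene in the 3 comparisons, the first named group minus the second, as the estimate and its 95% confidence interval from limma over all 14 arrays. Every interval includes 0, and the intervals of Mpo are the narrowest.

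Most of the variation lay within groups. Of the sum of squares over the 14 arrays, the part between groups was 23.4% for Mpo, 23.99% for Ms4a3, 18.6% for Ctsg, 16.8% for Prtn3 and 1.81% for Elane, against 14.8% for the median probe set. The rest lay between arrays of the same group, and there the genes moved together. Pearson's r over the 14 arrays was 0.95 for Prtn3 and Ctsg and 0.92 for Prtn3 and Ms4a3, with Spearman's rho of 0.87 for each. Ctsg and Ms4a3 had an r of 0.95 and a rho of 0.90. The permutation p, adjusted over the 10 pairs, was 0.0001 for each of these 3 r and 0.0003 to 0.000567 for the rho. Mpo had an r of 0.79 to 0.86 and a rho of 0.62 to 0.76 with these 3 genes (permutation p adjusted over the 10 pairs of at most 0.0015 for r and at most 0.0244 for rho). On deviations from the group means the r of the 6 pairs without Elane were 0.73 to 0.95, so the genes also moved together within groups.

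Elane followed the others less closely over all 14 arrays. Its r was 0.78 with Prtn3, 0.65 with Mpo, 0.60 with Ctsg and 0.56 with Ms4a3 (permutation p adjusted over the 10 pairs of 0.00223, 0.0177, 0.0298 and 0.0411). The rho of 0.78 with Prtn3 and 0.63 with Ms4a3 passed (adjusted permutation p of 0.00352 and 0.0244), and those of 0.47 with Mpo and with Ctsg did not (adjusted permutation p of 0.0931 each). Without Instigator 4, the array with the extreme control values, Elane had an r of 0.95 with Prtn3, 0.93 with Ctsg, 0.96 with Ms4a3 and 0.84 with Mpo, so its weaker relation rested on that array. On Instigator 4 Elane lay -0.75 from its median over the 14 arrays, while Ms4a3 lay 0.68 and Ctsg 0.32 above theirs.

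Non-instigator 5 carried part of the relations that include Elane. Without it, and with Instigator 4 still in, the r of Elane was 0.36 with Mpo, 0.26 with Ctsg and 0.27 with Ms4a3, and these no longer passed (adjusted permutation p of 0.285, 0.390 and 0.390). Another setting left out the 2 arrays farthest from the median of the first gene. There the r of Mpo and Elane was 0.23 and that of Mpo and Ms4a3 0.57 (adjusted permutation p of 0.488 and 0.0611). The other 8 pairs kept an r of 0.65 to 0.94 and passed. The arrays left out differed between pairs, so this setting does not rank the pairs. For pairs of Mpo they were Non-instigator 5 and Instigator 3, and Instigator 4 stayed in. For Elane with Prtn3, Ctsg and Ms4a3, Instigator 4 was itself left out. Without Instigator 4 alone, the r of Mpo and Elane was 0.84. Non-instigator 5 was the lowest of the 14 arrays for all 5 genes, from -0.47 for Mpo to -1.15 for Prtn3 relative to the median array. Non-instigator 1 was the highest or second highest for all 5, at 0.17 for Mpo and 0.57 for Elane.

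**Figure D3:**
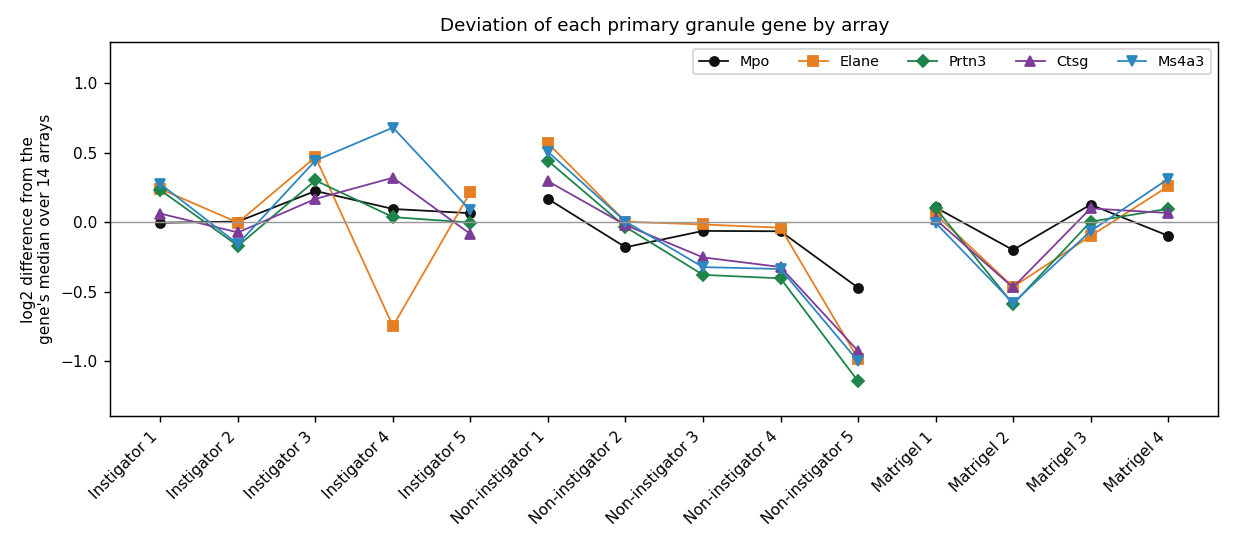
Log2 difference of each primary granule gene from its own median over the 14 arrays, with arrays on the horizontal axis by group and replicate number; lines join points of 1 gene within a group and mark no order in time. The genes move together on most arrays, Non-instigator 5 is low for all 5, and on Instigator 4 Elane lies at -0.75 while Ms4a3 lies at 0.68.

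**Figure D4:**
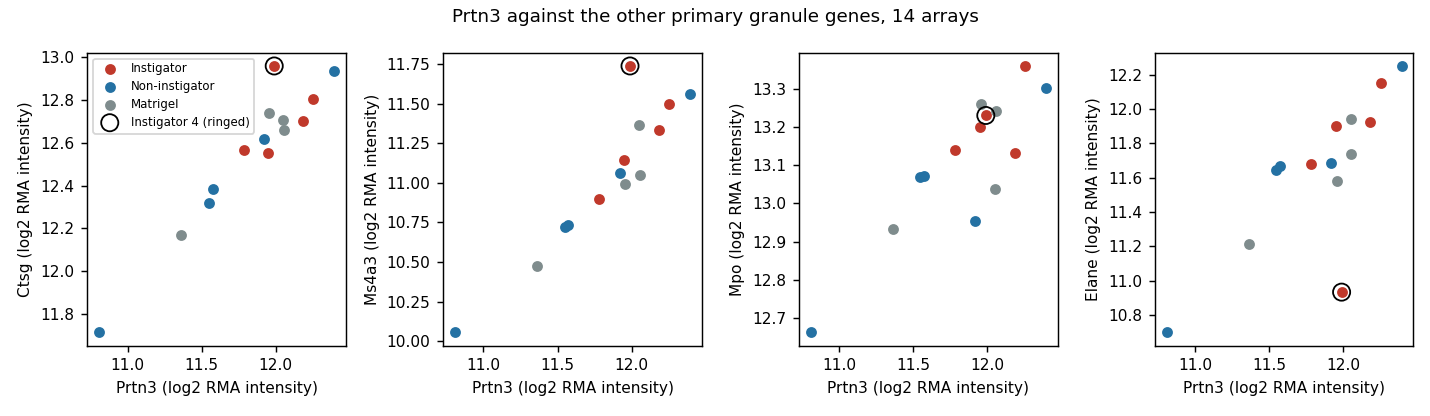
Log2 RMA intensity of Ctsg, Ms4a3, Mpo and Elane against that of Prtn3, 1 point per array, coloured by group, with Instigator 4 ringed. Points of the 3 groups lie along 1 band, and Instigator 4 lies above it for Ctsg and Ms4a3 and below it for Elane.

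The genes with the pattern most like that of the 5 were found from Pearson's r over the 14 arrays with the mean of the 5 standardised genes, as a description with no test, since they were picked as the highest of 12388. They were Gatm, which encodes the first enzyme of creatine synthesis (r = 0.94), Alas1, the first enzyme of haem synthesis outside the red cell lineage (r = 0.93), the mitochondrial adenylate kinase Ak4 (r = 0.93), the progenitor sialomucin Cd34 (r = 0.92), the lipopolysaccharide binding protein gene Lbp (r = 0.92) and the protein glucosyltransferase Poglut2 (r = 0.92). Without Instigator 4 and Matrigel 3 these r were 0.95, 0.96, 0.98, 0.92, 0.95 and 0.96. Over the 14 arrays Gatm spanned 6.13 to 8.23 and Cd34 7.53 to 8.97. Matrigel 3 is named because its median log2 intensity was 7.18, against 6.90 to 7.01 on the other 13 arrays. The 3 most opposed genes were Gata3, a transcription factor of T cells and innate lymphoid cells (r = -0.91), the GTPase Gimap6 of lymphocytes (r = -0.90) and the lymphocyte receptor Slamf6 (r = -0.90). Like the 5 genes, none of these 9 was called between groups, with limma adjusted p of at least 0.582 in each of the 3 comparisons.

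Regulators of early granulocyte development and progenitor genes followed the same pattern in part. Among the regulators, Cebpa, a transcription factor needed for granulocyte-monocyte progenitors, had an r of 0.82 with the 5 genes, the repressor Gfi1 0.75, Myb 0.73 and Spi1, which encodes PU.1, 0.53. The r was above 0 for 7 of 10 regulators (median 0.48), against 7031 of 12388 genes in all (median 0.06), and Runx1 and its partner Cbfb lay at -0.24 and -0.19. Of 9 progenitor genes, 6 had an r above 0 (median 0.49), with Cd34, named above, Hoxa9 at 0.78 and Kit at 0.69 the highest. The 3 below 0 were the cytokine receptor gene Flt3 at -0.49, Tal1 at -0.16 and Sox4 at -0.12. Kit, whose product the sort was meant to exclude, lay between 6.82 on Non-instigator 5 and 8.05 on Matrigel 1. No probe set carried the symbol of the Sca1 gene Ly6a alone. Probe sets annotated with several symbols were not searched for it, so selection for Sca1 was not checked. Of 10 monocyte and macrophage genes, 7 had an r above 0 (median 0.38), with Klf4 at 0.82 and Cd14 at 0.78 the highest and Ccr2, a chemokine receptor of monocytes, at -0.56, Irf8 at -0.40 and Mpeg1 at -0.14 the 3 below 0.

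Other primary granule genes, a list that also holds genes whose products process or bind granule proteins, went with the 5 in 6 of 7 cases (median r = 0.50). They included the protease inhibitor Cst7 at 0.74, the granule beta-glucuronidase Gusb at 0.73 and cathepsin C (Ctsc), which activates the granule serine proteases, at 0.52. Srgn lay at 0.50, Serpinb1a at 0.35 and Lyz2 at 0.20, and Cd68 went the other way, at -0.29. For genes of the later granules the r went both ways, with a median near 0. For 12 secondary and tertiary granule genes the r was above 0 in 6 (median 0.01), and it ran from -0.31 for Cybb to 0.26 for Hp. Lactoferrin (Ltf) lay at 0.05, the granule protein Ngp at 0.02, the collagenase Mmp8 at -0.04 and lipocalin 2 (Lcn2) at -0.10. For 8 mature neutrophil genes the r was above 0 in 4 (median -0.09), and it ran from -0.33 for Pglyrp1 to 0.39 for Clec4e, with S100a8 and S100a9 both at 0.01. Without Instigator 4 and Matrigel 3 the medians were 0.75 for the other primary granule genes, 0.04 for the secondary and tertiary granule genes and -0.14 for the mature neutrophil genes. The r then ran from -0.37 for Cybb to 0.71 for Hp and, among the mature neutrophil genes, from -0.29 for Pglyrp1 to 0.57 for Clec4e.

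Lymphoid and dendritic cell genes ran the opposite way on the same arrays. The r was below 0 for 9 of 9 B lineage genes (median -0.70), 6 of 6 plasma cell genes (median -0.64), 7 of 7 T cell genes (median -0.68), 7 of 7 NK cell genes (median -0.71) and 8 of 8 dendritic cell genes (median -0.61). The remaining lists lay nearer to 0, with medians of -0.11 for 10 basophil and mast cell genes, 0.002 for 6 eosinophil genes and -0.18 for 6 erythroid genes. Instigator 3 and Non-instigator 1, the arrays with the highest primary granule values on average, had the lowest mean levels of the 14 arrays for the B lineage list, at 7.90 and 8.22. Non-instigator 5 had the highest, at 9.43. The B lineage mean ran from 7.90 to 8.97 over Instigator, from 8.22 to 9.43 over Non-instigator and from 8.76 to 9.24 over Matrigel arrays. Non-instigator 5 also had the highest mean for NK cell genes, 10.19, and for plasma cell genes, 10.32. It was second highest for T cell genes, at 9.31 against 9.45 on Non-instigator 4. The same held for dendritic cell genes, at 9.15 against 9.35 on Matrigel 2. The NK cell mean ran from 8.997 to 9.79 over Instigator, from 9.49 to 10.19 over Non-instigator and from 9.36 to 9.98 over Matrigel arrays. RMA values hold no 0, so no marker is at 0 on this scale. Fewer cells of a type and less RNA per cell cannot be told apart in these bulk samples, and the part of other cell types in the primary granule values was not tested.

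**Figure D5:**
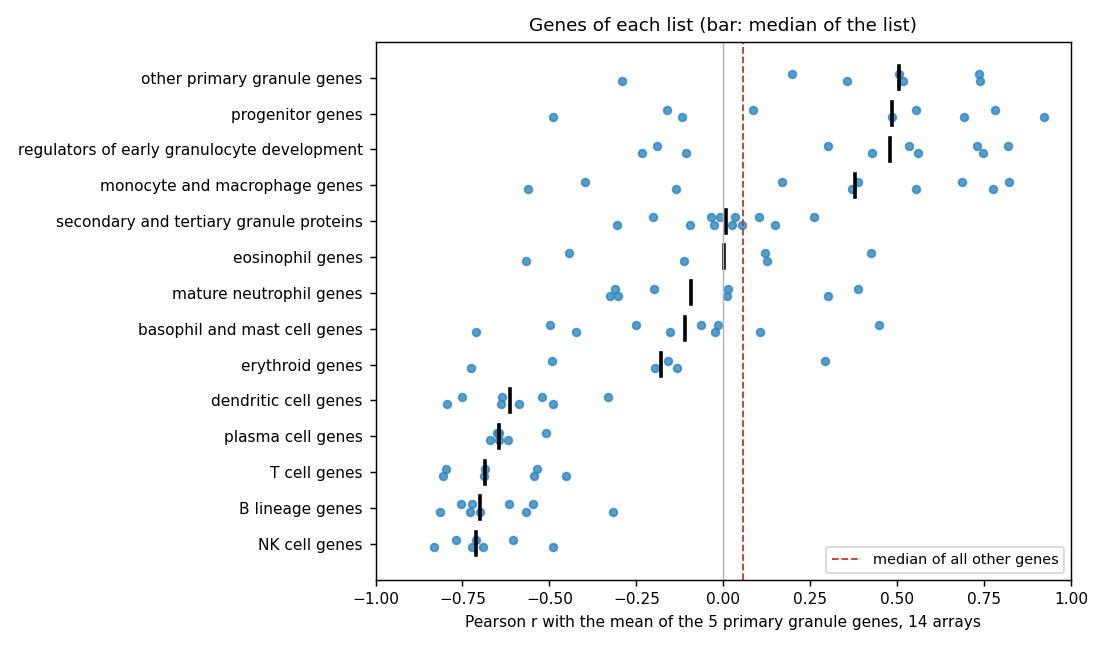
Pearson r over the 14 arrays between each gene of 14 lists and the mean of the 5 standardised primary granule genes, 1 point per gene, with the median of the list as a black bar and the median of all other genes as a dashed line. Other primary granule, progenitor and early regulator genes have medians near 0.50, secondary and tertiary granule genes a median of 0.01, and B, T, NK, plasma and dendritic cell genes lie wholly below 0.

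Between groups, the lists around granule formation gave the following counts. Of all probe sets, 42.8% lay above Matrigel in Instigator arrays and 36.2% in Non-instigator arrays. Of the 7 other primary granule genes, 4 lay above Matrigel in Instigator arrays (median 0.05) and 2 in Non-instigator arrays (median -0.04), and 0 passed in any comparison. Ctsc differed by 0.34 (SE 0.12) between Instigator and Non-instigator arrays, with a limma adjusted p of 0.813. Of 10 early regulators, 9 lay above Matrigel in Instigator arrays (median 0.26) and 8 in Non-instigator arrays (median 0.08). The largest departure among the early regulators by p was Cebpd, at 0.48 (SE 0.17) in Instigator against Matrigel arrays, with a limma adjusted p of 0.439. Of 12 secondary and tertiary granule genes, 8 lay above Matrigel in Instigator arrays (median 0.18) and 10 in Non-instigator arrays (median 0.16), where none of the 5 primary granule genes did in the Non-instigator group. Mmp8 differed by 0.44 (SE 0.14) in Instigator and by 0.37 (SE 0.14) in Non-instigator arrays, with limma adjusted p of 0.439 and 0.986. Whether the 2 kinds of granule differ in their response was not tested, and both tumour groups share the Matrigel arrays.

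Within several lists of other cell types most genes went in the same direction, with 0 genes called by limma in any comparison. The means of these lists on single arrays overlapped between the groups. For T cell genes the median of these means was 8.76 in Instigator and 8.75 in Matrigel arrays. In Instigator against Matrigel arrays, 1 of 8 dendritic cell genes lay above 0 (median -0.69), 1 of 9 B lineage genes (median -0.54), 0 of 6 plasma cell genes (median -0.41), 0 of 7 T cell genes (median -0.16) and 0 of 7 NK cell genes (median -0.22), and 8 of 10 monocyte and macrophage genes did (median 0.15). An unadjusted limma p under 0.05 was found for 6 of the 8 dendritic cell and 4 of the 9 B lineage genes, against 10.3% of all probe sets. The lists were chosen with earlier results of these data known, and genes of a list can move together, so these counts are no test. In Non-instigator against Matrigel arrays, 7 of 7 NK cell genes (median 0.20), 6 of 7 T cell genes (median 0.05) and 4 of 6 plasma cell genes (median 0.03) lay above 0. In the same comparison 2 of 9 B lineage genes (median -0.20), 0 of 8 dendritic cell genes (median -0.32) and 1 of 10 monocyte and macrophage genes (median -0.12) did.

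In Instigator against Non-instigator arrays, where the primary granule genes averaged higher, 0 of 7 NK cell genes (median -0.42), 0 of 6 plasma cell genes (median -0.47), 0 of 7 T cell genes (median -0.30), 1 of 9 B lineage genes (median -0.35) and 1 of 8 dendritic cell genes (median -0.33) lay above 0. Of the monocyte and macrophage genes, 9 of 10 lay above 0 (median 0.24). An unadjusted limma p under 0.05 was found for 4 of the 7 NK cell genes, against 5.6% of all probe sets. This list, too, was chosen with earlier results of these data known, so the count is no test. The part of these lists in the differences of the primary granule genes was not tested.

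The genes next to the 5 in the genome were also set beside them. Beside Elane and Prtn3 on chromosome 10, the nearest genes with a probe set were Ptbp1 and Med16. Ptbp1, a splicing regulator, differed by 0.14 (SE 0.15) and the Mediator subunit gene Med16 by 0.48 (SE 0.23) in Instigator against Matrigel arrays. Beside Ctsg on chromosome 14, the basophil protease Mcpt8 differed by 0.49 (SE 0.25) in Instigator and by 0.57 (SE 0.25) in Non-instigator arrays against Matrigel, while Gzme differed by 0.001 (SE 0.09) and -0.09 (SE 0.09). Lactoperoxidase (Lpo) and the probe set annotated to Mir142, beside Mpo on chromosome 11, differed by -0.03 (SE 0.09) and 0.13 (SE 0.13) in Instigator against Matrigel arrays. Beside Ms4a3 on chromosome 19, the high-affinity IgE receptor chain gene Ms4a2 differed by 0.05 (SE 0.07) and Oosp1 by -1.18 (SE 0.48) in the same comparison. None of these passed limma's test in any comparison, with adjusted p of at least 0.445. Over the 14 arrays Lpo lay at 4.80 to 5.20, Gzme at 3.62 to 4.00 and Ms4a2 at 4.81 to 5.09. Array medians lay at 6.90 to 7.18, so small differences at these low levels say little, and whether these genes are expressed was not tested.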

How the data were processed

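RNA of 14 samples was hybridised to Affymetrix mouse arrays, 1 array each, after labelling with the NuGen Ovation biotin system per the labels' protocols. The authors deposited intensity values on a linear scale for 22690 probe sets, made with RMA (affy package, R 2.11.0) according to the submitters' processing notes, which give no options. Their log2 was analysed without further normalization. Array medians lay between 119 and 145 in intensity, and the number of arrays limits the precision. After removal of 64 control probe sets, names came from the platform annotation, with 1 symbol for 20380 probe sets, several for 691 and none for 1555. Where a gene had several probe sets, the brightest on average was used.

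All 14 arrays entered 1 fit in limma 3.58.1 under R 4.3.3 (functions lmFit and eBayes with contrasts), with group as the factor and Benjamini-Hochberg adjustment over 22626 probe sets. Calls were made at an adjusted p below 0.05. The 15 differences of the 5 genes also had two-sided exact permutation tests over arrays. Correlations between the 10 pairs of genes had permutation tests with 100000 resamples, so that 1e-05 is the smallest p they can give. The text names the 5 genes, their neighbours with a probe set, the 6 genes most like them and the 3 most opposed, and genes from 14 lists (113 of 134 listed genes measured, with Csf3r and Flt3 each in 2 lists): the gene with the smallest p in a comparison, and examples of the pattern across arrays that were picked after their values were seen. The 5 genes and the lists were chosen with earlier results of these data known, as were the motifs with the promoters in view. Replicate numbers were tried as a block: the deviations of arrays with the same number correlated between -0.20 and 0.27 over 13 pairs, so the numbers were not taken to pair arrays. No 2 arrays were identical. Figures used matplotlib 3.10.9 (Python 3.11.15).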

Additional observations from a re-analysis of the deposited data

Results flagged for a closer look

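Of 15 sets of values, 1 for each gene in each group, 2 held an array far from the others of its group by Dixon's test, which flags about 1 in 20 by chance. Both were Matrigel 2, at 11.36 for Prtn3, against 11.96 to 12.06 on the other Matrigel arrays, and at 12.17 for Ctsg, against 12.66 to 12.74. The gap took 0.857 and 0.863 of the range of the group, above the critical value for 4 arrays. The values of 1 array in genes that move together are not independent flags. Non-instigator 5, the lowest array for all 5 genes, did not reach the critical value for 5 arrays, with a gap of 0.440 to 0.608 of the range.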

How the results depend on the processing

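With 4 or 5 arrays a group, the intervals of the 5 genes allow differences of up to about 1 on the log2 scale for Ms4a3. No setting called any of the 5 genes in any comparison (smallest limma adjusted p of 0.413 over the settings other than left-out arrays, and 0.493 over those). For all probe sets the count called in Instigator against Matrigel was 0, and 1 without Instigator 4 and Matrigel 3 together, with a range of 0 to 1 over left-out arrays. Fewer arrays entered those fits, and the cause was not tested. It was 0 in the other 2 comparisons under each setting. The median difference of the 5 genes ran from 0.15 to 0.31 in Instigator against Matrigel, from -0.14 to -0.06 in Non-instigator against Matrigel and from 0.32 to 0.34 between the tumour groups over the settings other than left-out arrays. Over left-out arrays the ranges were 0.02 to 0.21, -0.31 to 0.003 and 0.15 to 0.46. For Elane, Non-instigator minus Matrigel was -0.031, against 0.025 with median centring, 0.021 with array weights, 0.021 with Instigator 5 counted as Non-instigator and 0.057 with the replicate number as a block, and the cause was not tested. Over left-out arrays the differences that changed sign ran from -0.197 to 0.192 for Elane, -0.394 to 0.00316 for Prtn3 and -0.329 to 0.0477 for Ms4a3 in Non-instigator against Matrigel, from -0.0371 to 0.293 for Elane in Instigator against Matrigel and from -0.0941 to 0.324 for Elane between the tumour groups. The block changed no call. Each of the 5 genes has 1 probe set, so the mean of several was not run. The correlations without some arrays were chosen after seeing the data.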
